A study of Mus musculus with 45 samples.

Results

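The cytochrome P450 genes of the mouse were followed in whole ileum across 9 genotypes. Every gene whose symbol begins with Cyp and a digit was taken, which gave 99 of the 19494 genes measured, each read by 1 probe; 95 are protein coding and 4 are pseudogenes. The symbol rule itself uses no measured value, though the set was chosen with earlier results of these data known. RNA came from pieces of ileum of mice of about 11 weeks, kept on chow in a specific-pathogen-free facility, and each of 45 mice was measured on 1 microarray, 5 mice per group. The floxed controls were Fadd fl/fl and Casp8 fl/fl mice. FADD IEC-KO and CASP8 IEC-KO mice lacked FADD, the adaptor of death receptors, or the protease caspase-8 in intestinal epithelial cells. FADD IEC-KO Mlkl -/- and CASP8 IEC-KO Mlkl -/- mice also lacked MLKL, the protein that breaches the membrane in necroptosis. FADD IEC-KO Zbp1 -/- mice also lacked the nucleic acid sensor ZBP1, and FADD IEC-KO RIPK3 IEC-KO mice also lacked the necroptosis kinase RIPK3 in the epithelium. Mice named FADD IEC-KO CASP8 IEC-KO Mlkl -/- carried both deletions with Mlkl -/- and are called triple mutants. Neither the driver of the epithelial deletion nor the sex of the mice is named in the labels. The labels also do not say whether the mice of a group came from separate litters or cages, so p-values measure the spread between these mice.

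Cytochromes P450 are haem enzymes that insert an oxygen atom into lipids, steroids, vitamins and foreign compounds, with electrons passed on by P450 oxidoreductase or, in mitochondria, by ferredoxin. In the small intestine most of them are made by absorptive enterocytes of the villus, where members of the Cyp3a and Cyp2c families oxidise drugs and dietary compounds and Cyp2c, Cyp2j and Cyp4f enzymes oxidise arachidonic acid and other fatty acids. Other members handle bile acid precursors and oxysterols (Cyp27a1, Cyp7b1, Cyp39a1), vitamin D (Cyp2r1, Cyp27b1, Cyp24a1), retinoic acid (the Cyp26 enzymes) and the sterol ring (Cyp51). Nuclear receptors such as HNF4, PXR and the vitamin D receptor control many of these genes.

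The 3 members that carried the main pattern, Cyp2c55, Cyp2c65 and Cyp2c66, are the first 3 genes of a run of 14 Cyp2c genes on chromosome 19, of which 13 were measured. All 3 lie on the plus strand, and the 250 bases before each annotated start are printed so that these neighbours can be set side by side. The sequences are RefSeq's, from assembly GRCm38.p6, at chr19:39006769-39007018 for Cyp2c55, chr19:39060756-39061005 for Cyp2c65 and chr19:39113648-39113897 for Cyp2c66. Capitals mark TATAAA, the core sequence of TATA boxes, and CAAAGTCCA, an HNF4 response element. From the annotated start, TATAAA began at -29 in Cyp2c55, -162 in Cyp2c65 and -150 in Cyp2c66. Only exact matches are marked, so tatataag, which lies nearer the start in Cyp2c65 and Cyp2c66, is not. Which stretch serves as a TATA box was not tested.
Cyp2c55: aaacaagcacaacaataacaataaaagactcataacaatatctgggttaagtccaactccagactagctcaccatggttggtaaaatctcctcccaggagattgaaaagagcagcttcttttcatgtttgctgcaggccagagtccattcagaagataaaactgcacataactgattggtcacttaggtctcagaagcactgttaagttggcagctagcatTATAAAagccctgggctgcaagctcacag
Cyp2c65: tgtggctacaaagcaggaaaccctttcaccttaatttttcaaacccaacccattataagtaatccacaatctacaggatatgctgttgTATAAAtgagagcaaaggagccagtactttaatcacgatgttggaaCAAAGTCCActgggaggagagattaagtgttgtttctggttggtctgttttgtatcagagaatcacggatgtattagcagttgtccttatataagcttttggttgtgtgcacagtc
Cyp2c66: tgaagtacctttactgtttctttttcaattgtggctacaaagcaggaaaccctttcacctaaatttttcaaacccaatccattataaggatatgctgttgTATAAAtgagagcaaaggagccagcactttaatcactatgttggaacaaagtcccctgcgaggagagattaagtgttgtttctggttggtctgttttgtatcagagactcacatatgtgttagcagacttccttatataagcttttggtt
Over windows of 300 bases that also hold the 50 bases from the start on, Cyp2c65 and Cyp2c66 were 77.8% identical, Cyp2c55 and Cyp2c65 56.0%, and Cyp2c55 and Cyp2c66 53.9%.

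The exact HNF4 element was found in the Cyp2c65 window and not in the windows of the other two. In Cyp2c65 its first base lay at -116 from the start, at chr19:39060890-39060898. The closest stretch in Cyp2c66 began at -104 and differed by A9C, and the closest in Cyp2c55 began at -112 and differed by A3G; positions count from 1 at the first base of the element, the element's base is given first, and the promoter's base last. The capitals mark the 9 bases in 30-base stretches.
Cyp2c65: gatgttggaaCAAAGTCCActgggaggaga
Cyp2c66: tatgttggaaCAAAGTCCCctgcgaggaga
Cyp2c55: tgctgcaggcCAGAGTCCAttcagaagata
Promoter windows were in the table for 73 of the 99 members. The exact element, searched on both strands, was in 11 of these 73 (15.1%) and in 129 of all 27025 promoter windows of the same length (0.477%). The 11 were Cyp2c40, Cyp2c65, Cyp2c67, Cyp2c68, Cyp2c69, Cyp2c70, Cyp3a11, Cyp3a16, Cyp3a41a, Cyp3a41b and Cyp8b1, with first bases between -125 and -45. These paralogs share sequence: Cyp2c40 and Cyp2c69 hold the same stretch, atcattgagaCAAAGTCCAtttggaagaga, and Cyp3a16, Cyp3a41a and Cyp3a41b share another, aagagacgacCAAAGTCCAggtgatgcagg. Of the 11 genes, 1 (Cyp2c65) differed among the groups by the test given below, against 13 of the 73. TATAAA was in 29 of the 73 windows (39.7%) and in 14.2% of all windows, and the xenobiotic response element GCGTG was in 16 (21.9%) and in 32.5%. The D-box TTATGTAA, which shares TTATG with the CDX site TTTATG also searched, was in 0 of the 73 and in 0.955% of all windows; no searched motif lies within CAAAGTCCA. A match is a description of the sequence, and the arrays measured no binding.

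Fadd and Casp8 went mostly with the labels, and Mlkl and Zbp1 less clearly. Fadd was 5.96 to 6.45 on the log2 scale in FADD IEC-KO mice 2 to 5 and 7.32 in mouse 1, against 7.46 to 7.61 in Fadd fl/fl mice. Casp8 was 9.63 to 10.57 in CASP8 IEC-KO mice 2 to 5 and 10.89 in mouse 1, against 11.24 to 11.49 in Casp8 fl/fl mice. Mice numbered 1 in both groups therefore stood closest to their controls, and the counts without both are given where they change a call. The genotype field of the triple mutants names CASP8 IEC-KO Mlkl -/- alone, while the titles also name FADD IEC-KO; Fadd was 5.34 to 6.52 there, which goes with the titles. Mlkl was 7.85 to 8.39 in FADD IEC-KO Mlkl -/- mice, below FADD IEC-KO mice (8.51 to 9.53) without overlap, and 6.94 to 7.32 in triple mutants. In CASP8 IEC-KO Mlkl -/- mice Mlkl was 8.18 to 8.66, which overlapped CASP8 IEC-KO mice (8.54 to 9.18; adjusted p = 0.132) and Casp8 fl/fl mice (8.43 to 8.98), so Mlkl gave no check of the label there. Zbp1 was 5.66 to 6.46 in FADD IEC-KO Zbp1 -/- mice and overlapped FADD IEC-KO mice (5.83 to 7.94; adjusted p = 0.0653). Ripk3 was 7.34 to 7.76 in FADD IEC-KO RIPK3 IEC-KO mice and 8.29 to 9.25 in FADD IEC-KO mice. Where the probes lie relative to the deleted parts was not used here. The enterocyte genes Vil1, Fabp6 and Slc10a2 were at or above percentile 99.0 of every array, and the hepatocyte gene Alb lay between percentiles 19.1 and 30.1. The fat cell gene Adipoq ranged from 3.86 to 8.72. Y-linked genes were high in 25 arrays and low in 20, and high in all 5 FADD IEC-KO RIPK3 IEC-KO mice. Titles carry numbers under 100 (28 mice) or of 200 and over (17 mice), whose meaning the labels do not give. All triple mutants have numbers of 200 and over and all FADD IEC-KO Mlkl -/- mice numbers under 100, so between these groups the number series and the genotype cannot be told apart.

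Loss of FADD or of caspase-8 changed few P450 genes, and the set as a whole was not called more often than other genes in most comparisons. A gene was called at a Benjamini-Hochberg adjusted p under 0.05 in limma, in a fit of all 45 arrays. In FADD IEC-KO against Fadd fl/fl mice 7 of 99 members were called, 2 higher and 5 lower, with 3.73% of all genes called (1.81% higher and 1.92% lower). The median log2 difference was -0.07 over the members and -0.00 over all genes. In CASP8 IEC-KO against Casp8 fl/fl mice 3 were called, 2 higher and 1 lower, with 4.17% of all genes called (2.89% higher and 1.28% lower), and the medians were -0.01 and -0.02. The difference between the FADD and the CASP8 effect was called for 0 members and for 0% of all genes, with 11 members at an unadjusted p under 0.05. The Fadd fl/fl and Casp8 fl/fl groups differed in 0 members (0.00513% of all genes called; 8 members at an unadjusted p under 0.05). Within a single group the mice also differed, as the values below show.

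Mice with additional loss of MLKL, ZBP1 or RIPK3 differed from the single knockouts in between 2 and 5 members. Among FADD IEC-KO Mlkl -/- against FADD IEC-KO mice 2 members were called, both lower (1.61% of all genes called, 0.749% lower). FADD IEC-KO Zbp1 -/- against FADD IEC-KO mice gave 2, both lower (3.32%, 2.47% lower), and FADD IEC-KO RIPK3 IEC-KO against FADD IEC-KO mice gave 2, both higher (1.55%, 0.831% higher). CASP8 IEC-KO Mlkl -/- against CASP8 IEC-KO mice gave 5, 1 higher and 4 lower (2.78%, with 1.59% higher and 1.19% lower). Triple mutants differed from FADD IEC-KO Mlkl -/- mice in 6 members, 5 higher and 1 lower (7.86%, with 5.51% higher and 2.35% lower), and from CASP8 IEC-KO Mlkl -/- mice in 1, which was higher (3.10%, 2.04% higher). In FADD IEC-KO mice, loss of MLKL, ZBP1 or RIPK3 each gave 2.02% of members called, against 1.61%, 3.32% and 1.55% of all genes. Loss of MLKL in CASP8 IEC-KO mice gave 5.05% against 2.78%. The comparisons of the triple mutants gave 6.06% against 7.86% and 1.01% against 3.10%. With so few members called, these differences in share were not read as a result about the members. The mice of the groups compared did not overlap in 3 members after FADD loss (3.83% of all genes), in 6 after CASP8 loss (4.27%), in 6 between FADD IEC-KO Mlkl -/- and FADD IEC-KO mice (3.02%) and in 6 between CASP8 IEC-KO Mlkl -/- and CASP8 IEC-KO mice (4.20%).

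Set against floxed controls, the combined mutants of FADD ranged from 1 to 10 called members. The FADD IEC-KO Mlkl -/- mice had 10, all lower (10.5% of all genes called, 6.35% lower), FADD IEC-KO Zbp1 -/- mice 8, with 2 higher and 6 lower (11.9%, with 4.78% higher and 7.08% lower), and FADD IEC-KO RIPK3 IEC-KO mice 1, which was higher (1.23%, 0.564% higher). CASP8 IEC-KO Mlkl -/- mice had 0 called members against Casp8 fl/fl mice by limma (1.09% of all genes called; 7 members at an unadjusted p under 0.05). Triple mutants had 0 against both floxed groups (3.69%; 9 members at an unadjusted p under 0.05). Comparisons of FADD IEC-KO lines with each other and with Fadd fl/fl share arrays, so their values are given side by side and not as independent support. The test of whether the MLKL effect differed between the FADD and CASP8 backgrounds, given below, was added after the data had been seen. So was a pair of comparisons within the FADD lines. In it, FADD IEC-KO Mlkl -/- mice differed from FADD IEC-KO RIPK3 IEC-KO mice in 14 members, 1 higher and 13 lower (4.96% of all genes called, with 2.04% higher and 2.91% lower), and from FADD IEC-KO Zbp1 -/- mice in 6, 1 higher and 5 lower (4.12%, with 2.36% higher and 1.76% lower).

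Across all 9 groups, 18 members differed by limma's F test (18.2% of the members, with 25.4% of all genes called). In order of the p they were Cyp2c65, Cyp39a1, Cyp2c66, Cyp2j6, Cyp2r1, Cyp4f16, Cyp27a1, Cyp3a25, Cyp2s1, Cyp2a5, Cyp7b1, Cyp2d22, Cyp4f13, Cyp11b2, Cyp2c55, Cyp2j9, Cyp2u1 and Cyp4f40. The adjusted p ran from 2.49e-07 for Cyp2c65 to 0.0355 for Cyp4f40, and just outside lay Cyp3a11 and Cyp3a59 at 0.0575. Over the 19 tests between groups (this F test and 18 contrasts), 27 of the 99 members were called in at least 1, and 33.2% of all genes were. The other 72 were called in none of these, though 5 of them were called in fits on the marker indices given at the end. Among the 72, the highest and lowest group means of a gene were 0.12 to 0.97 log2 units apart, with a median of 0.35, which was also the median over all genes.

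**Figure D1:**
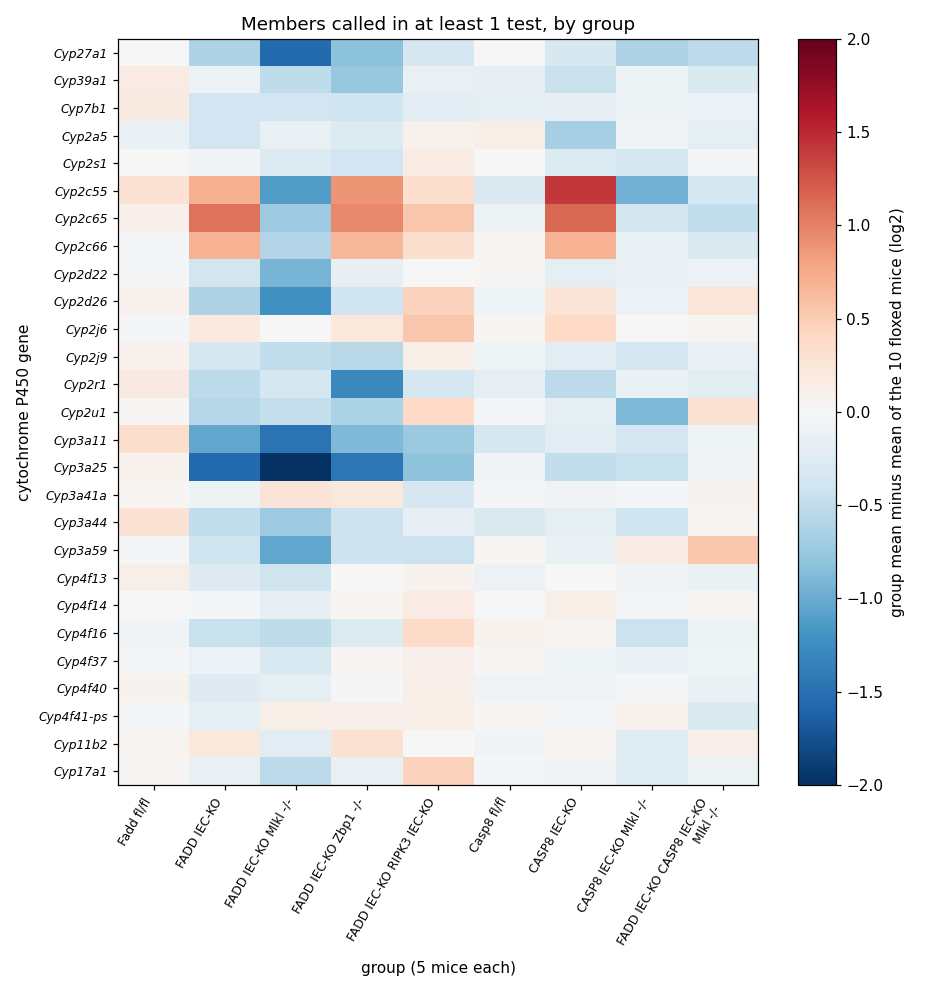
Group mean minus the mean of the 10 floxed mice, in log2 units, for the 27 cytochrome P450 genes called in at least 1 test between groups (rows) in the 9 groups (columns), with the colour scale running from -2 to 2. Values run from -1.97 to 1.41; the Cyp2c rows are positive in FADD IEC-KO, CASP8 IEC-KO and FADD IEC-KO Zbp1 -/- mice and, at 0.31 to 0.53, for FADD IEC-KO RIPK3 IEC-KO mice, and the Cyp3a25 and Cyp27a1 rows are lowest in FADD IEC-KO Mlkl -/- mice.

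Of the 14 Cyp2c genes, Cyp2c65 and its neighbours Cyp2c66 and Cyp2c55 changed, and the other 11 were called in no test between groups (33.2% of all genes were called in at least 1). Cyp2c65 and Cyp2c66 encode intestinal enzymes that oxidise arachidonic acid. Cyp2c65 was 8.89, 7.68, 7.95, 7.66 and 9.05 in the 5 Fadd fl/fl mice and 8.89, 9.72, 8.96, 9.42 and 9.19 in the 5 FADD IEC-KO mice. Of the floxed mice, 3 lay well below every FADD IEC-KO mouse and the other two lay at the lower end of the knockouts. The means were 8.25 ± 0.67 and 9.24 ± 0.34 (SD, n = 5), a rise of 0.99 ± 0.27 (SE) log2 units or 1.99-fold (adjusted p = 0.0309). In Casp8 fl/fl mice Cyp2c65 was 8.57, 7.85, 7.48, 8.31 and 8.04, and in CASP8 IEC-KO mice 8.81, 9.17, 9.63, 9.61 and 9.23. These groups did not overlap, and Cyp2c65 rose by 1.24 ± 0.27 log2 units or 2.36-fold (adjusted p = 0.00613). The effects of FADD and of CASP8 loss on Cyp2c65 differed by -0.25 ± 0.38 log2 units (adjusted p = 0.958). Within title numbers under 100 the rise was 0.96 in the FADD pair (4 against 2 mice) and 1.15 in the CASP8 pair (3 against 4).

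In mice labelled Mlkl -/-, Cyp2c65 was lower than in the single knockouts on both backgrounds. Values were 7.16, 7.62, 7.17, 7.59 and 7.55 in FADD IEC-KO Mlkl -/- mice, 8.30, 7.49, 7.68, 7.78 and 7.64 in CASP8 IEC-KO Mlkl -/- mice and 8.29, 7.21, 7.65, 8.20 and 6.98 in triple mutants. Every one of these 15 mice lay below every FADD IEC-KO and CASP8 IEC-KO mouse. The CASP8 IEC-KO Mlkl -/- mice lay within the range of the Casp8 fl/fl mice. Neither they nor the triple mutants had a called difference from their floxed controls in Cyp2c65. Cyp2c65 differed by -1.82 ± 0.27 (SE) log2 units, 3.52-fold, between FADD IEC-KO Mlkl -/- and FADD IEC-KO mice (adjusted p = 2.65e-05). Between CASP8 IEC-KO Mlkl -/- and CASP8 IEC-KO mice it differed by -1.51 log2 units, 2.85-fold (adjusted p = 3.52e-04). Both calls held without any single mouse and when only the groups compared were fitted. The test of whether the MLKL effect differed between the FADD and CASP8 backgrounds gave -0.30 (adjusted p = 0.959), and within title numbers under 100 the differences were -1.83 and -1.39. Cyp2c65 in FADD IEC-KO Mlkl -/- mice also differed by -0.83 from Fadd fl/fl mice (adjusted p = 0.0422). That call ended without Fadd fl/fl mouse 1 or 5 or without any single FADD IEC-KO Mlkl -/- mouse (adjusted p 0.0512 to 0.188). It also ended with the title series in the fit (0.134) and in a fit restricted to those groups (0.0669).

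Loss of ZBP1 or RIPK3 was not accompanied by a called change of Cyp2c65 relative to FADD IEC-KO mice. In FADD IEC-KO Zbp1 -/- mice it was 8.55, 9.33, 8.96, 9.65 and 9.03, a difference of -0.13 (adjusted p = 0.862). In FADD IEC-KO RIPK3 IEC-KO mice it was 8.61, 8.14, 8.15, 9.12 and 9.40, a difference of -0.55 (adjusted p = 0.347). Most ZBP1-deficient mice lay within the range of the FADD IEC-KO mice, and the RIPK3 group spanned the range between the controls and the knockouts. FADD IEC-KO Zbp1 -/- mice were 0.86 above Fadd fl/fl mice (adjusted p = 0.0316), a call that ended without Fadd fl/fl mouse 2, 3 or 4 or FADD IEC-KO Zbp1 -/- mouse 2, 4 or 5 (0.0547 to 0.104). Compared with FADD IEC-KO Zbp1 -/- mice, FADD IEC-KO Mlkl -/- mice differed by -1.68 (adjusted p = 1.22e-04) and compared with FADD IEC-KO RIPK3 IEC-KO mice by -1.26 (adjusted p = 0.00324). Fitted on only the groups compared, the rise of Cyp2c65 over floxed controls was not called in FADD IEC-KO mice (adjusted p = 0.132), CASP8 IEC-KO mice (0.0606) or FADD IEC-KO Zbp1 -/- mice (0.11). The FADD rise also ended without Fadd fl/fl mouse 2, 3 or 4 or FADD IEC-KO mouse 2 (0.0636 to 0.0974), and the CASP8 rise held without any single mouse.

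Cyp2c66 moved with smaller differences. It was 7.43, 6.71, 6.77, 6.31 and 7.42 in Fadd fl/fl mice, 7.16, 8.30, 7.31, 7.92 and 7.63 in FADD IEC-KO mice and 6.62, 6.13, 6.41, 6.46 and 6.27 in FADD IEC-KO Mlkl -/- mice. The knockout overlapped the controls, and no FADD IEC-KO Mlkl -/- mouse reached any FADD IEC-KO mouse. Cyp2c66 rose by 0.74 ± 0.22 (SE) in FADD IEC-KO mice (adjusted p = 0.0429) and differed by -1.28 ± 0.22 between FADD IEC-KO Mlkl -/- and FADD IEC-KO mice (adjusted p = 1.89e-04). In CASP8 IEC-KO mice it was 0.66 above Casp8 fl/fl mice, which missed the threshold (adjusted p = 0.0680). It was 7.47, 7.38, 7.96, 8.0 and 7.49 there and 7.03, 6.67, 6.73, 6.71 and 7.0 in CASP8 IEC-KO Mlkl -/- mice, a difference of -0.83 ± 0.22 with no overlap (adjusted p = 0.0206). The FADD rise of Cyp2c66 ended without any 1 of Fadd fl/fl mice 2 to 4 or FADD IEC-KO mice 2 to 5 (0.0503 to 0.156), in a fit restricted to those groups (0.185) and with the Y-linked genes as a covariate (0.0525). The CASP8 IEC-KO Mlkl -/- difference ended without CASP8 IEC-KO mouse 3 or 4 or CASP8 IEC-KO Mlkl -/- mouse 2, 3 or 4 (0.0539 to 0.0833). With a clock gene index in the fit (given with Cyp2u1) it was -0.70 and was not called (adjusted p = 0.101). Probe sequences were not used here, and any signal shared between the neighbours Cyp2c65 and Cyp2c66 cannot be separated.

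Cyp2c55, a hydroxylase of arachidonic acid, varied widely between mice of 1 genotype. It was 8.93, 5.82, 6.22, 6.16 and 9.22 in Fadd fl/fl mice and 6.87, 8.80, 6.15, 9.53 and 7.08 in FADD IEC-KO mice. High and low mice were present in both groups, and the difference of 0.41 was not called (adjusted p = 0.792). Fadd fl/fl mice 1 and 5, high in Cyp2c55, were also the highest controls in Cyp2c65, Cyp2c66, Cyp3a11 and Cyp3a25. The same held in Cyp27a1, Cyp2d22, Cyp2r1 and Cyp2j6, and not in Cyp7b1 or Cyp39a1 (values below). Cyp2c55 was 7.44, 7.99, 8.65, 9.79 and 8.06 in CASP8 IEC-KO mice and 6.74, 5.84, 6.4, 6.09 and 5.01 in CASP8 IEC-KO Mlkl -/- mice. These groups did not overlap, and the difference was -2.37 ± 0.61 (SE) log2 units or 5.16-fold (adjusted p = 0.0189). It ended without CASP8 IEC-KO mouse 4 or CASP8 IEC-KO Mlkl -/- mouse 5 (0.0704 to 0.0924), and was -1.98 (adjusted p = 0.102) with a clock gene index in the fit, on which these groups also differed (given with Cyp2u1). Against Casp8 fl/fl mice, CASP8 IEC-KO mice were 1.71 ± 0.61 higher in Cyp2c55, which was not called (adjusted p = 0.0983).

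**Figure D2:**
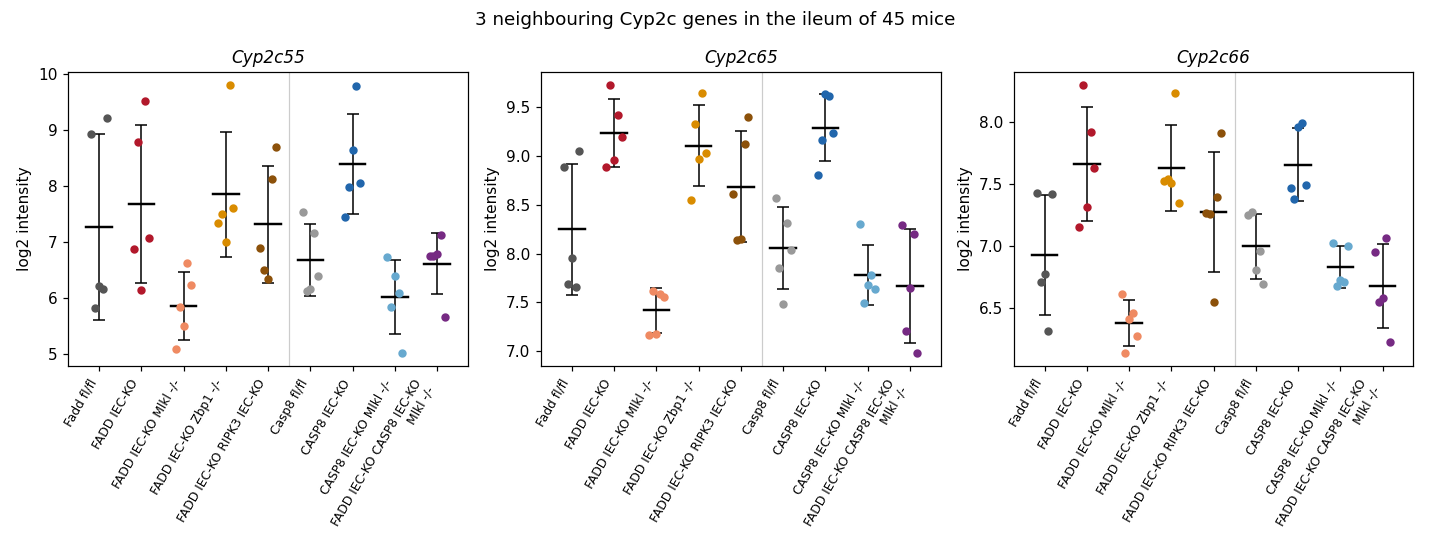
Log2 intensity of Cyp2c55, Cyp2c65 and Cyp2c66 (1 panel each) in the 9 genotype groups, with a point for each of 5 mice, a black line for the group mean and a bar for the SD; a grey line sets the FADD groups apart from the CASP8 groups and triple mutants. Cyp2c65 lies between 8.81 and 9.72 in every FADD IEC-KO and CASP8 IEC-KO mouse and at or below 8.30 in every mouse labelled Mlkl -/-.

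Markers of epithelial cell types moved in the same comparisons. Of 7 Paneth cell markers, 6 fell in FADD IEC-KO mice (median log2 difference -2.28) and 6 in CASP8 IEC-KO mice (-2.20), and 6 of 7 goblet cell markers fell in CASP8 IEC-KO mice (-0.43). Other mean levels also did not overlap between FADD IEC-KO and Fadd fl/fl mice. Enteroendocrine markers were lower (7.303 to 8.017 against 8.031 to 8.263), as were tuft cell markers (5.845 to 6.094 against 6.176 to 6.478). Neutrophil markers were higher (4.575 to 5.856 against 4.359 to 4.566). In CASP8 IEC-KO Mlkl -/- against CASP8 IEC-KO mice 5 Paneth markers and 3 goblet markers rose. In FADD IEC-KO Mlkl -/- against FADD IEC-KO mice 0 Paneth markers were called and 4 of 14 enterocyte markers fell (median -0.24). In FADD IEC-KO Mlkl -/- against Fadd fl/fl mice 6 of 7 Paneth markers fell (median -2.24). In that comparison, in which 10 P450 genes fell, smooth muscle markers (4 of 6 fell, median -0.62), fibroblast markers (4 of 5, -0.67) and endothelial markers (4 of 5, -0.73) fell as well. Their mean levels did not overlap between FADD IEC-KO Mlkl -/- and Fadd fl/fl mice, at 9.68 to 10.16 against 10.24 to 11.02 for smooth muscle, 8.29 to 8.80 against 8.89 to 9.46 for fibroblasts and 6.63 to 7.04 against 7.16 to 7.68 for endothelium. In FADD IEC-KO Zbp1 -/- against Fadd fl/fl mice 5 of 5 fibroblast markers (-0.78) and 5 of 5 endothelial markers (-0.90) fell and 0 of 6 smooth muscle markers did. The part of cell composition in the P450 results was not tested, and in whole tissue fewer cells of a type and less RNA per cell cannot be told apart.

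In the Cyp3a family, which oxidises drugs, steroids and bile acids, Cyp3a25 fell with FADD loss and lower values ran through the FADD Mlkl and FADD Zbp1 groups. Cyp3a25 was 8.56, 6.68, 6.26, 6.08 and 7.39 in Fadd fl/fl mice, 5.93, 5.43, 4.86, 6.44 and 4.17 in FADD IEC-KO mice and 5.10, 4.67, 4.50, 5.57 and 4.88 in FADD IEC-KO Mlkl -/- mice. FADD IEC-KO mice overlapped the controls through mouse 4, and the FADD IEC-KO Mlkl -/- mice lay below all 5 controls. The fall was -1.63 ± 0.45 (SE) or 3.09-fold in FADD IEC-KO mice (adjusted p = 0.0329) and -2.05 ± 0.45 or 4.14-fold in FADD IEC-KO Mlkl -/- mice (adjusted p = 0.00226). The FADD call ended without Fadd fl/fl mouse 1 or 5 or FADD IEC-KO mouse 2, 3 or 5 (0.0663 to 0.124) and in a fit restricted to those groups (0.147). In FADD IEC-KO Zbp1 -/- mice Cyp3a25 was 6.20, 4.49, 4.89, 7.05 and 4.74, a difference of -1.52 from the controls (adjusted p = 0.0216) that ended without Fadd fl/fl mouse 1 or 5 or FADD IEC-KO Zbp1 -/- mouse 2, 3 or 5 (0.0528 to 0.0939). The FADD IEC-KO Zbp1 -/- difference was also not called in a fit restricted to those groups (0.123). In CASP8 IEC-KO mice Cyp3a25 differed by -0.42 from Casp8 fl/fl mice, which was not called (adjusted p = 0.672).

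Cyp3a11, the main drug-oxidising Cyp3a enzyme and a target of the receptor PXR, was well above the other Fadd fl/fl controls in mice 1 and 5. It was 7.44, 5.34, 4.61, 4.38 and 7.58 in Fadd fl/fl mice, 4.59, 4.80, 4.10, 5.38 and 3.57 in FADD IEC-KO mice and 3.92, 3.98, 4.08, 4.38 and 3.92 in FADD IEC-KO Mlkl -/- mice. The control mean of 5.87 ± 1.54 (SD, n = 5) thus rested on mice 1 and 5. The difference from the controls was -1.38 in FADD IEC-KO mice (adjusted p = 0.0838) and -1.81 ± 0.47 (SE) or 3.52-fold in FADD IEC-KO Mlkl -/- mice (adjusted p = 0.00875). The call in the FADD IEC-KO Mlkl -/- mice ended without Fadd fl/fl mouse 5 (adjusted p = 0.0630) and in a fit restricted to those groups (0.0603). Cyp3a44 also fell in FADD IEC-KO Mlkl -/- mice, by 1.01 log2 units (adjusted p = 0.00814). That call ended without Fadd fl/fl mouse 1 (0.0532) and in a fit restricted to those groups (0.0994).

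Triple mutants had more Cyp3a25 and Cyp3a59 than FADD IEC-KO Mlkl -/- mice. Cyp3a25 was 6.84, 6.82, 7.19, 7.42 and 6.02 in triple mutants, and every value lay above the FADD IEC-KO Mlkl -/- mice. The rise was 1.92 ± 0.45 (SE) or 3.77-fold (adjusted p = 0.00598). Cyp3a59 was 2.85, 2.74, 2.56, 3.33 and 2.90 in FADD IEC-KO Mlkl -/- mice and 4.32, 4.71, 4.73, 5.25 and 3.21 in triple mutants, a rise of 1.57 ± 0.38 (adjusted p = 0.00695). Only triple mutant 5 fell within the range of the other group. These were the members that kept their call in this comparison with the title series in the fit. The number series does not vary within either of these groups, so that fit takes its effect from the other groups. It cannot separate the series from the genotype here. Promoter windows of the neighbours Cyp3a25 and Cyp3a59 were 95.7% identical, probe sequences were not used here, and signal shared between such close copies cannot be separated. Enterocyte markers moved in the same comparison, with 8 of 14 higher (median 0.43), as did smooth muscle markers, with 6 of 6 higher (0.88), and 6 of 7 Paneth markers (1.51). The mean level of the enterocyte markers was 10.39 to 10.70 in FADD IEC-KO Mlkl -/- mice and 11.01 to 11.16 in triple mutants, without overlap. Their part in the P450 differences was not tested.

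**Figure D3:**
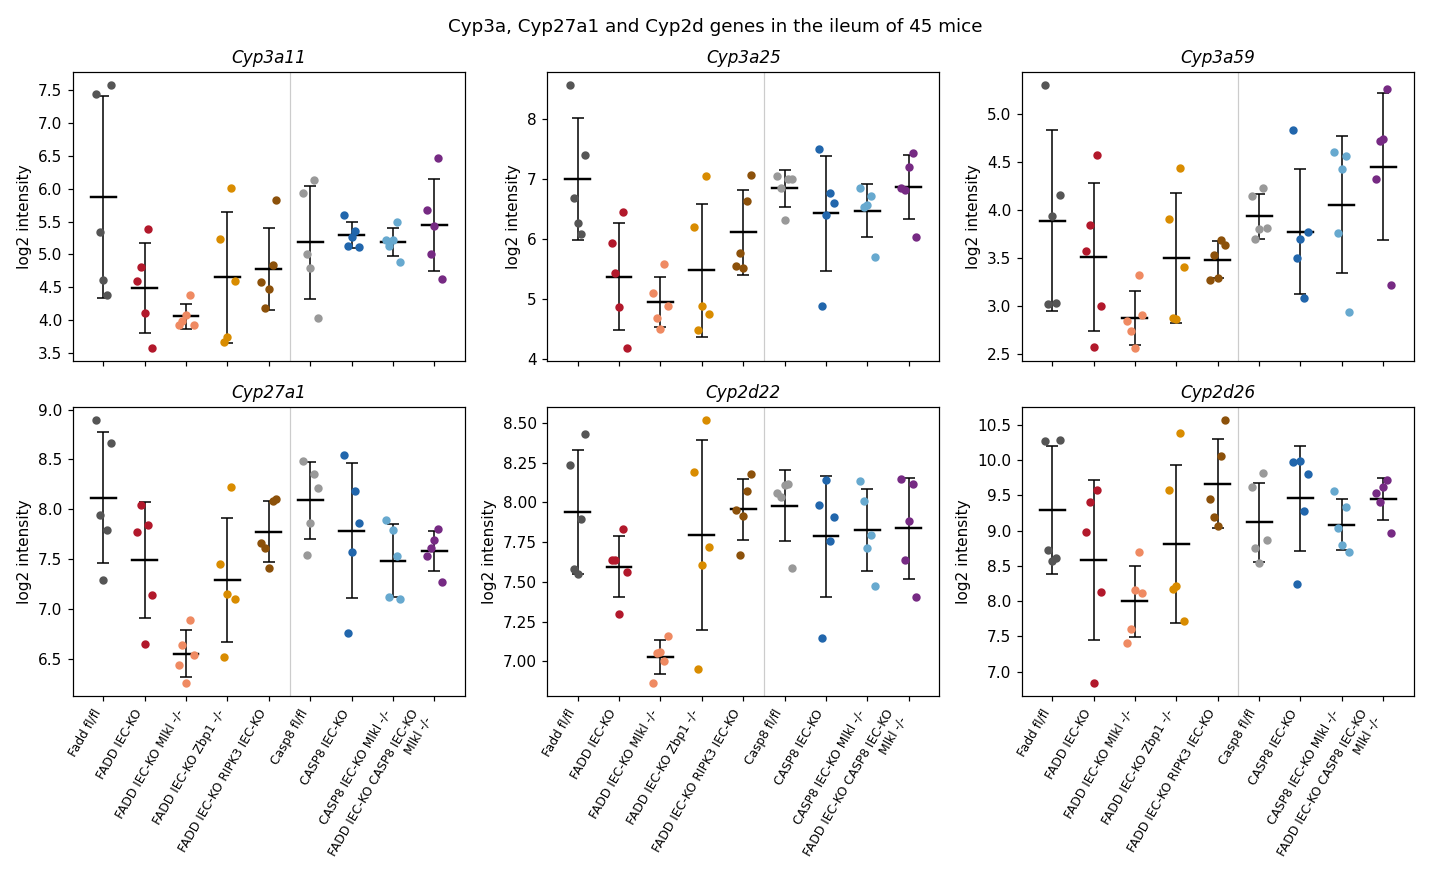
Log2 intensity of Cyp3a11, Cyp3a25, Cyp3a59, Cyp27a1, Cyp2d22 and Cyp2d26 (1 panel each) in the 9 groups, a point per mouse, a black line for the mean and a bar for the SD. FADD IEC-KO Mlkl -/- mice have the lowest mean in each panel, and Fadd fl/fl mice 1 and 5 stand above the other controls in Cyp3a11.

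Besides Cyp2r1, 8 genes of bile acid, oxysterol and vitamin D metabolism were measured. Of these, 3 were called in a test between groups (33.2% of all genes), and each was lower in a FADD line than in its controls. Cyp27a1, the mitochondrial sterol hydroxylase that starts the acidic bile acid pathway, was 8.89, 7.94, 7.29, 7.79 and 8.67 in Fadd fl/fl mice, 7.77, 8.04, 6.64, 7.85 and 7.14 in FADD IEC-KO mice and 6.44, 6.64, 6.25, 6.89 and 6.53 in FADD IEC-KO Mlkl -/- mice. All FADD IEC-KO Mlkl -/- mice lay below all controls. The difference from the controls was -0.63 in FADD IEC-KO mice (adjusted p = 0.224) and -1.57 ± 0.29 (SE) or 2.96-fold in FADD IEC-KO Mlkl -/- mice (adjusted p = 3.12e-04), a call that held without any single mouse. Cyp27a1 was 7.53, 7.61, 7.69, 7.81 and 7.27 in triple mutants, 1.03 ± 0.29 above FADD IEC-KO Mlkl -/- mice without overlap (adjusted p = 0.0196). This call ended without FADD IEC-KO Mlkl -/- mouse 3 (0.0540) and with the title series in the fit (0.109). In FADD IEC-KO RIPK3 IEC-KO mice Cyp27a1 was 7.66, 7.61, 7.41, 8.08 and 8.10, and FADD IEC-KO Mlkl -/- mice differed by -1.22 from them (adjusted p = 0.00761).

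Cyp7b1, an oxysterol hydroxylase, fell in FADD IEC-KO mice and had no called change in CASP8 IEC-KO mice. It was 5.01, 5.49, 5.22, 5.29 and 5.56 in Fadd fl/fl mice and 4.68, 4.54, 4.96, 4.78 and 4.80 in FADD IEC-KO mice. The groups did not overlap, and the difference was -0.56 ± 0.12 (SE) or 1.48-fold (adjusted p = 0.00502). It held without any single mouse and reached an adjusted p of 0.0510 in a fit restricted to those groups. The difference was -0.57 in FADD IEC-KO Mlkl -/- mice (adjusted p = 0.00162) and -0.57 in FADD IEC-KO Zbp1 -/- mice (0.00129), against the same controls. After CASP8 loss it was 0.02 (adjusted p = 0.951), and the test of the difference between the FADD and CASP8 effects gave -0.59 (adjusted p = 0.391), so the effects were not shown to differ.

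Cyp39a1, another oxysterol hydroxylase, was lowest in the ZBP1-deficient mice. It was 7.51, 8.12, 8.07, 8.34 and 8.28 in Fadd fl/fl mice, 7.63, 7.93, 7.87, 7.66 and 7.83 in FADD IEC-KO mice, 7.30, 7.47, 7.29, 7.50 and 7.41 in FADD IEC-KO Mlkl -/- mice and 7.24, 7.23, 7.16, 7.17 and 6.87 in FADD IEC-KO Zbp1 -/- mice. Every ZBP1-deficient mouse lay below every mouse of the other three groups. Cyp39a1 differed by -0.65 ± 0.12 (SE) between FADD IEC-KO Zbp1 -/- and FADD IEC-KO mice (adjusted p = 0.00221) and by -0.93 ± 0.12 from Fadd fl/fl mice (adjusted p = 4.32e-07). Neither call ended without a single mouse, and the former was not called in a fit restricted to those groups (0.109). The FADD IEC-KO Mlkl -/- mice differed by -0.67 from Fadd fl/fl mice (adjusted p = 1.71e-04) and by -0.39 from FADD IEC-KO mice, which was not called (0.0841). The MLKL effect on Cyp39a1 on the FADD background minus that on the CASP8 background was -0.74 ± 0.16 (adjusted p = 0.0754).

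Cyp2r1, the hydroxylase that makes calcidiol from vitamin D, fell in FADD IEC-KO mice and lay lower again without ZBP1. It was 5.74, 5.28, 5.04, 5.13 and 5.64 in Fadd fl/fl mice, 5.10, 4.44, 4.10, 5.02 and 4.66 in FADD IEC-KO mice and 3.54, 3.91, 4.50, 4.10 and 3.45 in FADD IEC-KO Zbp1 -/- mice. The last group lay below all controls and overlapped the FADD IEC-KO mice. The difference was -0.71 ± 0.21 (SE) for FADD IEC-KO against controls (adjusted p = 0.0460), -1.47 ± 0.21 or 2.77-fold for FADD IEC-KO Zbp1 -/- against controls (adjusted p = 5.47e-06), and -0.76 ± 0.21 for FADD IEC-KO Zbp1 -/- against FADD IEC-KO (adjusted p = 0.0327). The first ended without any 1 of Fadd fl/fl mice 1, 2, 4 and 5 and FADD IEC-KO mice 2, 3 and 5 (0.0524 to 0.177), under quantile normalization (0.0622) and with the title series or Y-linked genes in the fit (0.0546 and 0.0533). The third ended without FADD IEC-KO mouse 1, 4 or 5 or FADD IEC-KO Zbp1 -/- mouse 1 or 5 (0.0612 to 0.120). The first and the third were not called in fits restricted to the groups compared (0.132 and 0.235). Of the other vitamin D enzymes, Cyp27b1, which makes calcitriol, had group means of 5.75 to 6.07, and Cyp24a1, which degrades it, 5.32 to 5.64; neither was called in any test, nor was Cyp7a1, the first enzyme of the classic bile acid pathway, at 3.46 to 4.02.

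The Cyp2d genes Cyp2d22 and Cyp2d26, relatives of the human drug oxidiser CYP2D6, were lowest in FADD IEC-KO Mlkl -/- mice. Cyp2d22 was 8.24, 7.58, 7.55, 7.90 and 8.43 in Fadd fl/fl mice, 6.86, 7.05, 7.06, 7.0 and 7.16 in FADD IEC-KO Mlkl -/- mice and 8.15, 7.64, 7.88, 8.12 and 7.40 in triple mutants. The FADD IEC-KO Mlkl -/- mice overlapped neither group. Their Cyp2d22 differed by -0.91 from the controls (adjusted p = 0.00190), and triple mutants were 0.81 ± 0.20 (SE) above FADD IEC-KO Mlkl -/- mice (adjusted p = 0.00765; 0.0576 with the title series in the fit). Cyp2d26 was 7.40, 7.61, 8.16, 8.69 and 8.12 in FADD IEC-KO Mlkl -/- mice and 9.53, 9.41, 9.61, 9.72 and 8.96 in triple mutants, a rise of 1.45 ± 0.45 without overlap (adjusted p = 0.0356). That call ended without any 1 of triple mutants 1 to 4 or FADD IEC-KO Mlkl -/- mice 1, 2, 3 and 5 (0.0544 to 0.0960), and with the title series (0.131) or the clock index (0.0627) in the fit. The other 7 Cyp2d genes were called in no test between groups.

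Cyp2j6, of the arachidonic acid epoxygenase family, was higher than in the controls in CASP8 IEC-KO mice, and likewise for FADD IEC-KO RIPK3 IEC-KO mice. It was 8.75, 8.39, 8.76, 8.71 and 8.50 in Casp8 fl/fl mice, 8.97, 8.77, 9.04, 9.18 and 9.06 in CASP8 IEC-KO mice and 8.66, 8.58, 8.71, 8.47 and 8.58 in CASP8 IEC-KO Mlkl -/- mice. The CASP8 IEC-KO mice lay just above both other groups. Cyp2j6 rose by 0.38 ± 0.10 (SE) with CASP8 loss (adjusted p = 0.0231) and differed by -0.40 ± 0.10 between CASP8 IEC-KO Mlkl -/- and CASP8 IEC-KO mice (adjusted p = 0.0152). The former ended without Casp8 fl/fl mouse 2 or CASP8 IEC-KO mouse 3 or 4 (0.0532 to 0.0942), and in a fit restricted to those groups (0.148). The latter ended without CASP8 IEC-KO mouse 4 or CASP8 IEC-KO Mlkl -/- mouse 4 (0.0569 to 0.0700). In the FADD groups, the same gene was compared with Fadd fl/fl mice. It was 8.68, 8.49, 8.57, 8.49 and 8.67 in Fadd fl/fl mice against 9.04, 9.08, 8.89, 9.25 and 9.44 for FADD IEC-KO RIPK3 IEC-KO mice, a rise of 0.56 ± 0.10 without overlap (adjusted p = 0.00216; 0.0513 in a fit restricted to those groups). The rise was 0.41 within title numbers under 100 (3 against 2 mice) and 0.77 within those of 200 and over (2 against 3). Its neighbour Cyp2j9 fell by 0.57 in FADD IEC-KO Mlkl -/- mice (adjusted p = 0.0278) and by 0.63 in FADD IEC-KO Zbp1 -/- mice (0.0129), against Fadd fl/fl mice.

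Among 21 Cyp4 genes, 6 were called in a test between groups (33.2% of all genes), all of them Cyp4f genes, which hydroxylate leukotrienes and long fatty acids. Cyp4f16 was 9.19, 8.59, 8.65, 8.97 and 9.06 in FADD IEC-KO mice against 9.57, 9.59, 9.26, 10.06 and 10.11 for FADD IEC-KO RIPK3 IEC-KO mice. The groups did not overlap, and the rise was 0.82 ± 0.16 (SE) (adjusted p = 0.00660; 0.0960 in a fit restricted to those groups). In Cyp4f16, FADD IEC-KO Mlkl -/- mice differed by -0.89 from FADD IEC-KO RIPK3 IEC-KO mice (adjusted p = 6.72e-04). Cyp4f40 fell by 0.33 ± 0.09 in FADD IEC-KO mice (adjusted p = 0.0352) and was 0.37 ± 0.09 higher in FADD IEC-KO RIPK3 IEC-KO than in FADD IEC-KO mice (adjusted p = 0.0336). The fall ended without any 1 of Fadd fl/fl mice 2 to 5 and FADD IEC-KO mice 2 and 3 (0.0518 to 0.181), and the rise without any 1 of FADD IEC-KO RIPK3 IEC-KO mice 1, 2 and 5 and FADD IEC-KO mice 2 and 3 (0.0535 to 0.200) and with the clock index or Y-linked genes in the fit (0.101 and 0.105). Cyp4f13 fell by 0.37 ± 0.11 in FADD IEC-KO mice (adjusted p = 0.0468), a call that ended without any 1 of Fadd fl/fl mice 1, 2, 4 and 5 and FADD IEC-KO mice 2, 3 and 4 (0.0529 to 0.187), under centring on array medians (0.0612) and with the title series in the fit (0.0560), and by 0.52 in FADD IEC-KO Mlkl -/- mice (0.00146). In fits restricted to the groups compared, the fall and the rise of Cyp4f40 were not called (0.254 and 0.275). Nor was the fall of Cyp4f13 in FADD IEC-KO mice (0.193). The pseudogene Cyp4f41-ps differed by -0.40 between triple mutants and FADD IEC-KO Mlkl -/- mice (adjusted p = 0.0478). That call ended without any 1 of triple mutants 2 to 5 and FADD IEC-KO Mlkl -/- mice 1 to 4 (0.0536 to 0.121). It also ended under quantile normalization (0.06) and with the title series (0.260) or the clock index (0.0733) in the fit.

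Cyp2a5, which hydroxylates coumarin and nicotine, fell after CASP8 loss at a low level. It was 4.86, 4.66, 4.28, 4.15 and 4.73 in Casp8 fl/fl mice, 3.81, 3.74, 3.63, 3.86 and 3.66 in CASP8 IEC-KO mice and 4.34, 4.41, 4.19, 4.34 and 4.49 in CASP8 IEC-KO Mlkl -/- mice. The knockout overlapped neither group. The difference from the controls was -0.80 ± 0.16 (SE) (adjusted p = 0.00210), and CASP8 IEC-KO Mlkl -/- mice were 0.61 ± 0.16 above CASP8 IEC-KO mice (adjusted p = 0.0183). The first held without any single mouse and reached 0.0609 in a fit restricted to those groups, and the second ended without CASP8 IEC-KO mouse 3 or CASP8 IEC-KO Mlkl -/- mouse 5 (0.0529 at most). Cyp2s1, an oxidiser of retinoids and fatty acids in epithelia, fell by 0.39 in FADD IEC-KO Zbp1 -/- against Fadd fl/fl mice (adjusted p = 0.0316). In the comparisons added later, the steroid hydroxylase Cyp17a1 differed by -0.99 between FADD IEC-KO Mlkl -/- and FADD IEC-KO RIPK3 IEC-KO mice (adjusted p = 0.00671; 0.0564 without FADD IEC-KO RIPK3 IEC-KO mouse 5). The aldosterone synthase Cyp11b2 differed by -0.50 between FADD IEC-KO Mlkl -/- and FADD IEC-KO Zbp1 -/- mice (adjusted p = 0.0141). That p rose up to 0.0624 without FADD IEC-KO Mlkl -/- mouse 4 or FADD IEC-KO Zbp1 -/- mouse 5. In fits restricted to the groups compared, the differences of Cyp17a1 and Cyp11b2 were not called (0.0825 and 0.0569).

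**Figure D4:**
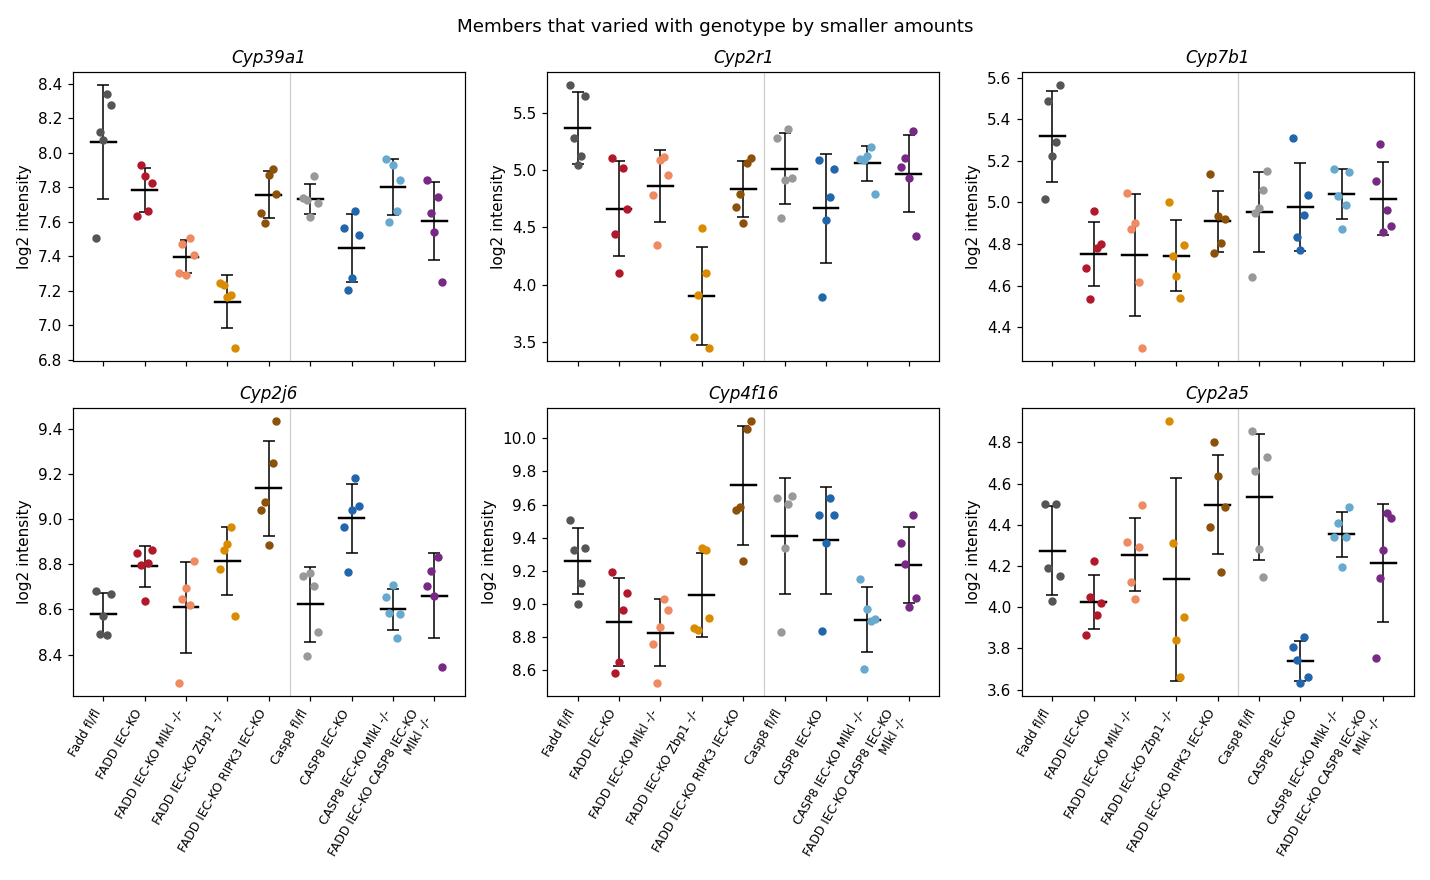
Log2 intensity of Cyp39a1, Cyp2r1, Cyp7b1, Cyp2j6, Cyp4f16 and Cyp2a5 (1 panel each) in the 9 groups, a point per mouse, a black line for the mean and a bar for the SD. Cyp39a1 and Cyp2r1 have their lowest mean in FADD IEC-KO Zbp1 -/- mice, Cyp2a5 in CASP8 IEC-KO mice, and Cyp2j6 and Cyp4f16 have their highest mean in FADD IEC-KO RIPK3 IEC-KO mice.

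Cyp2u1, a hydroxylase of long-chain fatty acids, rose and fell with circadian clock genes. It was 9.13, 9.07, 9.10, 8.92 and 8.24 in triple mutants and 7.93, 7.80, 7.61, 7.76 and 7.43 in CASP8 IEC-KO Mlkl -/- mice. The groups did not overlap, and triple mutants were 1.19 ± 0.35 (SE) higher (adjusted p = 0.0495). A clock index per mouse was formed as the mean of Dbp, Nr1d1, Per3, Ciart and Tef minus the mean of Arntl and Npas2, which peak at the opposite phase. It was -2.94 to -2.24 in CASP8 IEC-KO Mlkl -/- mice and -0.63 to 1.02 in triple mutants, without overlap, and ran from -2.94 to 1.71 over all mice. Cyp2u1 rose by 0.42 ± 0.05 per unit of the index within groups (adjusted p = 3.73e-07). With the index in the fit the difference between triple mutants and CASP8 IEC-KO Mlkl -/- mice was 0.00 (adjusted p = 0.997). That call also ended in 9 of 10 single leave-outs (all but triple mutant 5; 0.0555 to 0.116), under quantile normalization (0.0662), centring (0.0569) and with the title series in the fit (0.0802). The times of day at which tissue was taken are not given in the sources used here.

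In all 6 members rose with the clock index (4.57% of all genes called, 1.74% higher). Besides Cyp2u1 they were Cyp3a25 (0.41 ± 0.08 per unit, SE, adjusted p = 0.00322), Cyp2b10, a target of the receptor CAR (0.15 ± 0.03, 0.00752), Cyp3a57 (0.18, 0.0287), Cyp4b1 (0.23, 0.0313) and Cyp2c68 (0.20, 0.0334). With the clock index in the fit, Cyp3a25 kept its call in FADD IEC-KO mice and in triple against FADD IEC-KO Mlkl -/- mice. With the mean of Y-linked genes in the fit, 0 members followed it (limma; 0.0667% of all genes called; 7 members at an unadjusted p under 0.05).

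Cyp2e1, the ethanol oxidiser, was called in no comparison and followed fat cell markers. It ranged from 5.35 to 7.72 over the 45 mice. It rose by 0.94 ± 0.07 (SE) per unit of the mean of Adipoq, Plin1, Cidec, Lep and Fabp4 within groups (adjusted p = 5.35e-14), and was the only 1 of the 99 members called in that fit (0.108% of all genes called). The marker mean ran from 5.25 to 7.37 and its ranges overlapped between all groups.

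**Figure D5:**
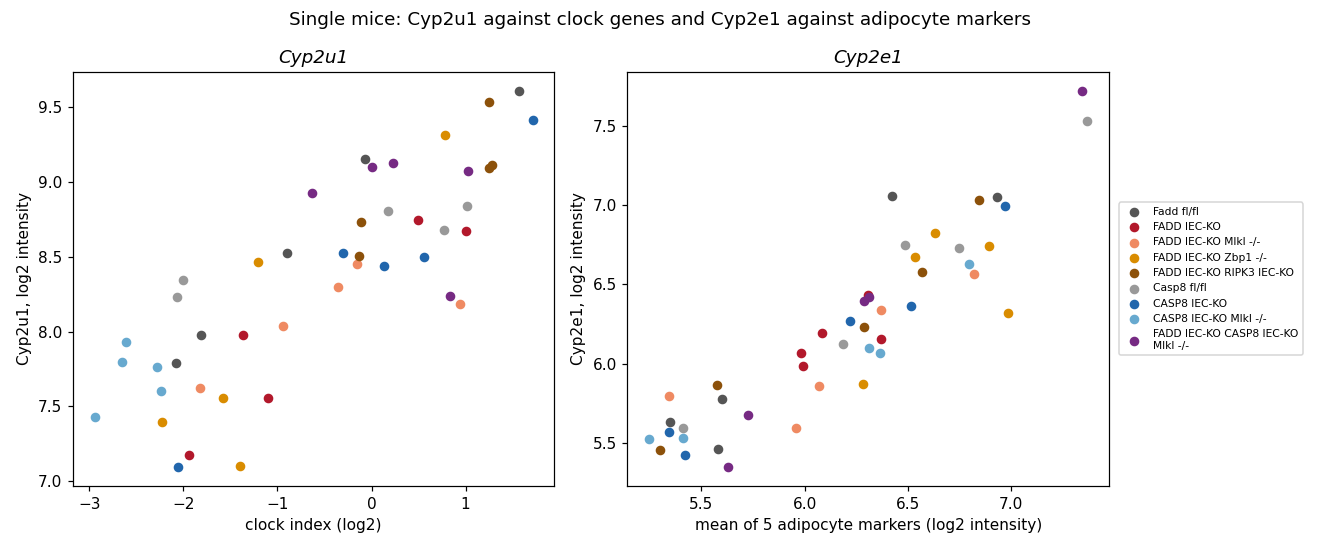
Left, log2 intensity of Cyp2u1 against the clock index (log2 units) and, right, of Cyp2e1 against the mean of 5 fat cell markers (log2 intensity), 1 point per mouse, coloured by group. The CASP8 IEC-KO Mlkl -/- mice have the lowest index and the lowest group mean of Cyp2u1, and Cyp2e1 rises with the marker mean.

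Whole families showed no called member in any test. These were the Cyp1 genes, targets of the aryl hydrocarbon receptor (3 members, no difference beyond 0.75 log2 units in the 14 comparisons), the Cyp26 genes that clear retinoic acid (3 members, none beyond 0.28), and Cyp51, the sterol demethylase, with Cyp20a1 (none beyond 0.29). In a comparison added later, Cyp1a1 differed by -0.97 between FADD IEC-KO Mlkl -/- and FADD IEC-KO Zbp1 -/- mice, which was not called (adjusted p = 0.0853). Group means of Cyp1a1 ran from 4.55 to 5.52, of Cyp1b1 from 5.28 to 5.66, of Cyp26a1 from 4.57 to 4.81, of Cyp26b1 from 5.33 to 5.64 and of Cyp51 from 10.03 to 10.33. Single members with roles in these pathways that were called in no comparison of groups also include Cyp3a13, an abundant intestinal Cyp3a (10.42 to 10.85), Cyp4a10, a target of PPAR alpha (4.35 to 4.75), Cyp4b1 (7.35 to 8.29), Cyp2b10 (3.92 to 4.20) and the side-chain cleavage enzyme Cyp11a1 (3.16 to 3.51). A p above the threshold does not show that these genes were alike in the groups.

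Genes that work with P450 enzymes were followed in lists of electron donors and haem supply (10 measured), P450 regulators (19), conjugating enzymes (18), retinoid handling (13) and sterol synthesis (12). After FADD loss, with 3.73% of all genes called, 0 electron donors changed, and 1 regulator rose and 0 fell. Among conjugating enzymes 1 rose and 2 fell, while 1 retinoid gene fell and 1 sterol gene rose. The regulator was Pparg, the fatty acid receptor PPAR gamma, which rose by 0.86 ± 0.14 (SE) (adjusted p = 3.06e-04). The others were the quinone reductase Nqo1 (0.54, 0.00286), the epoxide hydrolase Ephx1 (-0.57, 0.0399), the carboxylesterase Ces1f (-0.77, 0.0137), the retinol dehydrogenase Rdh7 (-0.84, 0.0453) and the lanosterol synthase Lss (0.54, 0.0403). After CASP8 loss 4.17% of all genes were called. Among electron donors and haem genes 1 rose (Alas1, the first enzyme of haem synthesis, 0.56, adjusted p = 0.0142). Among regulators 1 rose (Pparg, 0.96, 8.31e-05) and 1 fell (Nr0b2, the repressor SHP, -0.50, 0.0451). Nqo1 was the only conjugating enzyme called there (0.58, 0.00132), and 0 retinoid and 0 sterol genes were called.

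Partner genes were also called between the combined mutants and the single knockouts. In FADD IEC-KO Mlkl -/- against FADD IEC-KO mice Rbp2, the retinol-binding protein of enterocytes, fell by 1.24 ± 0.16 (SE) log2 units (adjusted p = 1.34e-06) and the sulfotransferase Sult1c2 by 1.16 ± 0.21 (5.73e-04), while Ces1f rose by 0.93 (0.00215). Sult1c2 also fell by 1.01 in FADD IEC-KO Zbp1 -/- against FADD IEC-KO mice (0.00541). In FADD IEC-KO RIPK3 IEC-KO against FADD IEC-KO mice 3 of 18 conjugating enzymes rose (0.831% of all genes were called higher). They included Ugt2b5, a glucuronosyltransferase, at 1.39 ± 0.30 (0.0129) and Ces1f at 1.06 (0.00205). Nr1h3, the oxysterol receptor LXR alpha, rose as well (0.63, 0.0196). In CASP8 IEC-KO Mlkl -/- against CASP8 IEC-KO mice (2.78% of all genes called) Pparg fell by 0.96 ± 0.14 (2.28e-05). Of 15 clock and D-box factors 6 were called, 2 higher and 4 lower, with Nr1d1 at -1.83 ± 0.34 (5.64e-04) and Dbp at -2.52 ± 0.67 (0.0269). The clock index ran from -2.94 to -2.24 in CASP8 IEC-KO Mlkl -/- mice and from -2.05 to 1.71 in CASP8 IEC-KO mice. As sampling times are not given, time of day and genotype cannot be told apart there.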

How the data were processed

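Target was prepared from total RNA of whole ileum with a WT PLUS kit, per the labels' protocols, and the submitters' processing notes name Affymetrix Expression Console and Transcriptome Analysis Console. How probes were summarized is not given in the sources used here. Log2 intensities were deposited by the authors, already normalized, with array medians between 6.36 and 6.44 and 0 identical pairs of arrays. Precision is limited by the number of arrays, 5 per group. A single gene symbol belonged to 19527 of the 22142 probes, several to 0, and 2615 had none. For the 33 genes with more than 1 probe, none of them a P450 gene, the probe of highest mean was kept. No dim probes were dropped.

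Groups followed the sample titles. In limma 3.58.1 (R 4.3.3), group means were estimated from all 45 arrays together (36 residual degrees of freedom) and contrasts tested with eBayes, two-sided. The Benjamini-Hochberg adjustment ran across 19494 genes, separately for each comparison. An F test covered the 8 differences among 9 groups. Slopes on the clock index, on the mean of the Y-linked genes Eif2s3y, Kdm5d and Uty, and on the fat cell markers were fitted beside the group means. Groups differed in spread, so the pooled spread can be too small or too large for a given pair. Fits of only the groups compared were therefore also run, and ended 25 of 53 called differences of named members. Named members were all those called in the first 6 comparisons (at most 12 each), at most 6 called in each other comparison by size of change, the 12 with the smallest F test p, and 29 members chosen by role, of which 27 were in the table; Cyp2c29 and Cyp4v3 were not analysed here. Other members named were called in a test or are named for their promoter or family. Alternatives were quantile normalization, centring on array medians, dropping dim genes, the mean of a gene's probes, each covariate, only the groups compared and single mice left out. The members and lists were chosen with earlier results of these data known. The fit was tested on simulated data. Promoter windows came from a RefSeq table of assembly GRCm38.p6.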

Additional observations from a re-analysis of the deposited data

Results flagged for a closer look

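A mouse was set apart where its gap to the nearest of its group, as a share of the group's range, passed Dixon's critical value of 0.71 for 5 values. Among 243 sets (27 members called in a test between groups, in 9 groups), 15 held such a mouse, and chance gives about 1 in 20. In triple mutant 5 Cyp2c55 was 5.67, with 6.75 in the nearest mouse, and Cyp2u1 was 8.24, with 8.92 nearest. In FADD IEC-KO Zbp1 -/- mouse 4 Cyp2c55 was 9.80, with 7.61 nearest, and Cyp2c66 was 8.23, with 7.54 nearest. In FADD IEC-KO Zbp1 -/- mouse 5 Cyp39a1 was 6.87, with 7.16 nearest. CASP8 IEC-KO mouse 2 was low in 3 members: Cyp2j9 was 4.52 (5.35 nearest), Cyp2s1 8.88 (9.27 nearest) and Cyp4f14 11.77 (12.09 nearest). FADD IEC-KO mouse 3 was low in Cyp2j6 at 8.64 (8.80 nearest) and in Cyp4f14 at 11.60 (11.93 nearest). CASP8 IEC-KO Mlkl -/- mouse 5 was low in Cyp3a25 at 5.70 (6.54 nearest) and in Cyp2r1 at 4.79 (5.09 nearest). In Casp8 fl/fl mice Cyp3a25 was 6.31 in mouse 3 (6.85 nearest) and Cyp2d22 was 7.59 in mouse 5 (8.03 nearest). In FADD IEC-KO RIPK3 IEC-KO mouse 4 Cyp3a41a was 3.56, with 3.05 nearest.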

How the results depend on the processing

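Counts below are of P450 genes called. Fitted on only the groups compared, the count went from 7 to 0 for FADD IEC-KO against Fadd fl/fl mice, from 3 to 0 for CASP8 IEC-KO against Casp8 fl/fl mice, from 2 to 0 for FADD IEC-KO Zbp1 -/- and from 2 to 0 for FADD IEC-KO RIPK3 IEC-KO against FADD IEC-KO mice, and from 1 to 0 for FADD IEC-KO RIPK3 IEC-KO and 8 to 5 for FADD IEC-KO Zbp1 -/- against Fadd fl/fl mice. It went from 6 to 12 for triple mutants against FADD IEC-KO Mlkl -/- mice, from 1 to 3 for triple mutants against CASP8 IEC-KO Mlkl -/- mice, and from 0 to 1 for CASP8 IEC-KO Mlkl -/- against Casp8 fl/fl mice and for the difference of the MLKL effect between backgrounds. This fit has fewer arrays to estimate the spread. With dim genes dropped, which also drops dim members, counts were 4 for FADD loss, 1 for FADD IEC-KO Zbp1 -/- against FADD IEC-KO, 5 for it against Fadd fl/fl, 3 for triple mutants against FADD IEC-KO Mlkl -/- and 1 for the MLKL difference. With the title series in the fit, triple mutants differed from FADD IEC-KO Mlkl -/- mice in 2 members and from CASP8 IEC-KO Mlkl -/- mice in 0. With the clock index in the fit the latter was 0, CASP8 IEC-KO Mlkl -/- against CASP8 IEC-KO 3, FADD IEC-KO RIPK3 IEC-KO against FADD IEC-KO 1 and against Fadd fl/fl 2, and triple mutants against both floxed groups 1. The Y-linked covariate gave 1 for FADD IEC-KO RIPK3 IEC-KO against FADD IEC-KO mice. Quantile normalization and centring each gave 0 for triple against CASP8 IEC-KO Mlkl -/- mice, and quantile normalization 1 for triple mutants against both floxed groups. Under these scalings the split of higher and lower members after FADD loss went from 34 and 65 to 43 and 56 or 41 and 58, and after CASP8 loss from 45 and 54 to 57 and 42 or 52 and 47. Without FADD IEC-KO mouse 1 and CASP8 IEC-KO mouse 1 together, an alternative chosen after seeing the data, the counts were 5 for CASP8 loss, 1 for FADD IEC-KO Zbp1 -/- against FADD IEC-KO mice and 1 for the MLKL difference. The cause of these shifts was not tested. None of the 53 called log2 differences of named members changed sign under any of these settings or with a single mouse left out, and 17 of 48 that were not called did under at least 1. The median log2 difference of the members after CASP8 loss went from -0.01 to 0.02 under quantile normalization and 0.01 under centring.

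With single mice left out, counts ran from 1 to 8 for FADD loss, 2 to 4 for CASP8 loss, 2 to 3, 1 to 3 and 1 to 3 for loss of MLKL, ZBP1 and RIPK3 in FADD IEC-KO mice, 2 to 6 for loss of MLKL in CASP8 IEC-KO mice, 3 to 7 and 0 to 1 for triple mutants against FADD IEC-KO Mlkl -/- and CASP8 IEC-KO Mlkl -/- mice, and 17 to 22 for the F test. Against floxed controls they ran from 8 to 13 for FADD IEC-KO Mlkl -/-, 5 to 12 for FADD IEC-KO Zbp1 -/-, 1 to 3 for FADD IEC-KO RIPK3 IEC-KO, 0 to 1 for CASP8 IEC-KO Mlkl -/- and 0 to 2 for triple mutants, and from 0 to 1 between the floxed groups. FADD IEC-KO Mlkl -/- mice differed in 4 to 8 members from FADD IEC-KO Zbp1 -/- and in 6 to 15 from FADD IEC-KO RIPK3 IEC-KO mice, and the MLKL difference gave 0 to 1. Of 65 called results for named members, 62 held under quantile normalization, 63 under centring, 57 with the title series, 58 with the clock index, 62 with the Y-linked genes and 64 with fat cell markers in the fit, and 28 of the 53 that could be fitted on only the groups compared. No paired analysis was possible because the titles share no numbers between groups.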
